A study of Mus musculus with 4 samples.

Results

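The genes described here are 10 cell adhesion genes of neurons and myelinating glia, taken by symbol from the count table: the contactins Cntn1, Cntn2, Cntn3, Cntn4, Cntn5 and Cntn6, the contactin-associated gene Cntnap2, the paralogues Dscam and Dscaml1, and Nfasc, which encodes neurofascin. All 10 were among the 24015 genes of the table, and all 10 passed the filter on low counts, which left 15117 tested genes. The study measured messenger RNA of the adult cerebellum in mice that carry a heterozygous knockout of Arid1b, a subunit gene of the BAF chromatin remodelling complex, and in their wild-type littermates, all of the C57BL/6N strain and aged 140 to 150 days. There were 2 heterozygotes and 2 wild types, and each genotype had 1 male and 1 female. The knockout is named only as heterozygous in the labels, with no Cre, promoter or treatment, and the part of the gene that is deleted was not given in the sources used here. The labels name each library by genotype and sex and not by animal. No 2 libraries share both, so no 2 can come from the same animal. The p-values rest on the spread of 4 libraries, which may be partly technical.

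Contactins are immunoglobulin proteins held on the outer face of the membrane by a lipid anchor, and they act with partners that do span it. Contactin 1 joins Caspr on the axon and glial neurofascin at the paranode, where myelin loops seal to the axon, while contactin 2 and Caspr2, the product of Cntnap2, gather potassium channels in the neighbouring juxtaparanode. Neuronal neurofascin anchors sodium channel clusters at nodes of Ranvier and at the axon initial segment, and in the cerebellum it organises the basket cell endings around the Purkinje cell initial segment. The Dscam proteins are large homophilic receptors known for keeping the branches of a neuron apart, and Dscam also acts in netrin signalling.

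Total counts lay between 15950899 and 20616219 per library. A gene with no count could therefore be as high as 0.146 to 0.188 CPM (the count scaled to the library total), taking 3 counts as the limit and covering counting error only. Arid1b was lower in both heterozygotes, with means of 54.4 ± 2.02 and 70.5 ± 0.791 CPM in heterozygotes and wild types (SD, n = 2 each). The log2 fold change, -0.37 ± 0.11 (SE), did not pass the test (edgeR quasi-likelihood test, adjusted p = 0.243). It was -0.38 with the male wild type left out and -0.36 with the female wild type left out. With the male heterozygote left out it was -0.33, and with the female heterozygote left out -0.42. The granule cell marker Gabra6, at 329 to 502 CPM, and the Purkinje cell marker Calb1, at 545 to 747 CPM were abundant in every library. The female wild type had the lowest summed level of brainstem and midbrain neuron markers, 166 CPM against 349 to 426 in the other 3 libraries. Values of several members and listed genes are also given without this library.

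Levels were compared between genes only after division by length. Per kilobase of the longest annotated coding transcript, the mean level over the 4 libraries was highest for Cntn2 (58.2 CPM per kb, range 50.3 to 65.8) and Cntn1 (54.9, range 50.3 to 60.4), whose ranges overlapped. Nfasc followed at 37.5 CPM per kb (range 35.5 to 41.1) and Cntn6 at 18.3 (range 13.9 to 22.4), each apart from its neighbours in the order. Cntnap2 (range 4.60 to 8.49 CPM per kb), Cntn4 (5.49 to 7.06), Dscaml1 (5.15 to 6.99) and Dscam (3.37 to 6.12) could not be ordered, because their ranges overlapped. Cntn3 lay lower, at 2.31 to 3.11 CPM per kb, and Cntn5 lowest, at 0.208 to 0.913. With merged exons as the length, Dscam and Cntn4 exchanged places and the other 8 genes kept their rank.

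**Figure D1:**
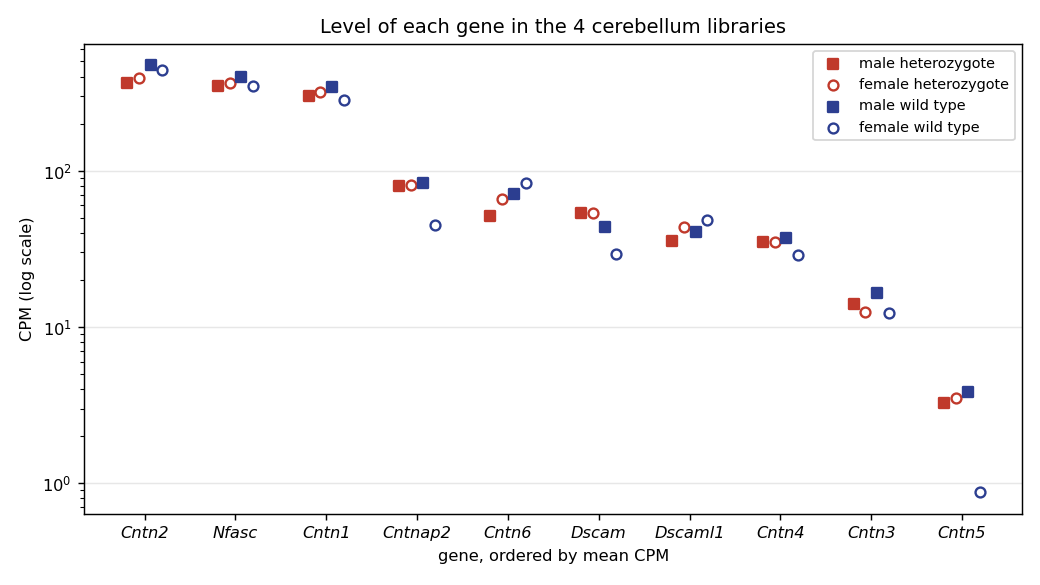
CPM of each gene (log axis) in the 4 libraries, with red for heterozygotes, blue for wild types, squares for males and circles for females, 1 point per library. CPM does not allow for gene length, so points compare libraries within a gene, and the female wild type stands below the other 3 libraries for Cntnap2, Dscam and Cntn5.

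No member passed the genotype test over all genes (0 of 10 by edgeR's quasi-likelihood test, DESeq2 and limma-voom; for Cntn3, Cntn4 and Cntn5 DESeq2 gave no adjusted p), where edgeR and limma-voom each called 0.0198% of the 15117 tested genes and DESeq2 0.547% of the 6031 genes to which it gave an adjusted p. Dscam was the member with the smallest p, with a log2 fold change of 0.57 ± 0.15 (SE), followed by Cntn6 at -0.40 ± 0.11 (SE) and Cntn2 at -0.27 ± 0.11 (SE). These 3 genes had an unadjusted p under 0.05, against 11.7% of all tested genes, and they were also the 3 of 10 members whose genotypes did not overlap in CPM, against 44.7% of all tested genes. Fold changes of the 10 members ran from -0.40 to 0.75 on the log2 scale, 4 above and 6 below 0, and their median was -0.04 beside 0.01 for all tested genes. Fits with 1 library left out had genotype as the only term, because 3 libraries leave no residual degree of freedom once sex is fitted too. Such a value therefore changes both the libraries and the sex term, and holds any sex difference among the 3 libraries that remain. With all 4 libraries and no sex term, 0 of 10 members passed (edgeR). With either heterozygote left out 0 of 10 passed as well (edgeR, adjusted p = 1 for each without the male, and 0.949 to 0.991 without the female).

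**Figure D2:**
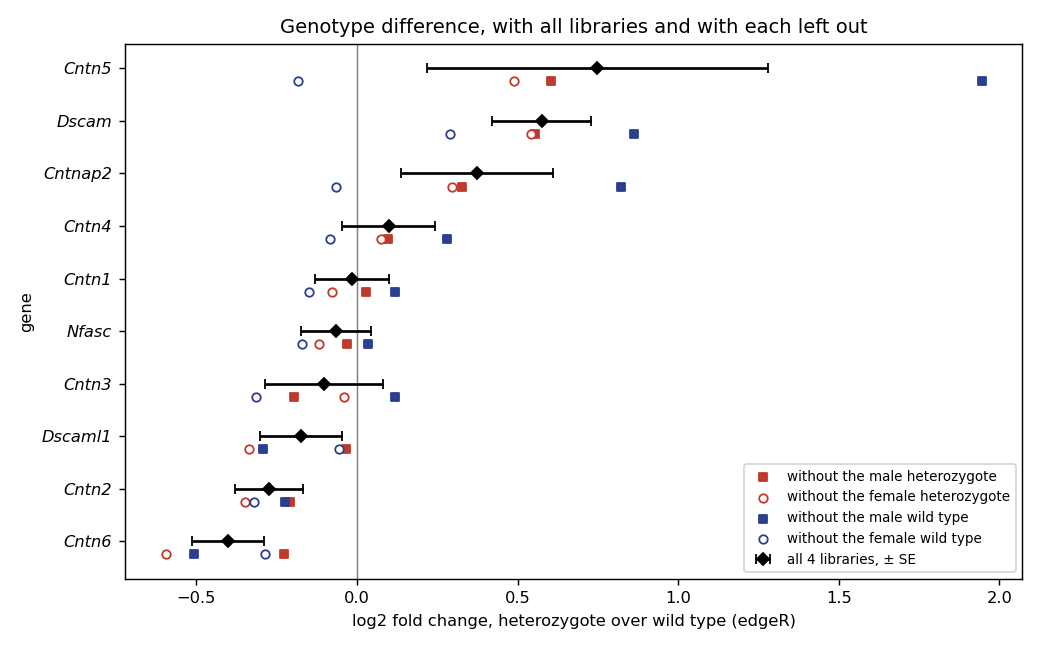
Log2 fold change of heterozygotes over wild types for each gene (x axis; genes on the y axis), as black diamonds with SE bars for all 4 libraries and as coloured points for fits with the named library left out and genotype as the only term. Dscam stays above 0 and Cntn6, Cntn2 and Dscaml1 stay below 0 in every fit shown, while Cntn5 and Cntnap2 cross 0 without the female wild type.

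Dscam encodes the Down syndrome cell adhesion molecule, which keeps dendrites and axons of like neurons from fasciculating. The male and female heterozygotes stood at 53.4 and 53.5 CPM, and the male and female wild types at 43.6 and 29.4 CPM. The heterozygotes were nearly equal to each other and both exceeded both wild types. Their mean was 53.4 ± 0.0656 CPM against 36.5 ± 10.04 (SD, n = 2 each), so the spread seen lay in the wild types. The counting error was 3.04% in the male and 3.42% in the female heterozygote, which is wider than their SD. Their near equality is therefore no measure of the variation between heterozygotes. The difference, a 1.49-fold level, did not pass the test (edgeR, adjusted p = 0.207). It passed in a fit of all genes with a count, where the low-count filter was dropped (adjusted p = 0.00333, in a fit that called 2.92% of genes). Leaving out the male wild type gave a log2 fold change of 0.86, and Dscam passed (edgeR, adjusted p = 5.83e-11), in a fit that called 17.5% of all tested genes. Leaving out the female wild type gave 0.29, and Dscam did not pass (edgeR, adjusted p = 0.126), in a fit that called 4.30%. In both fits the lone wild type is assumed to vary like the heterozygotes, which were alike.

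Dscam and Cntn6 were the members of smallest p in either direction, and sequence before their start sites is shown to set them side by side. Both stretches are from the RefSeq promoter table (GRCm38.p6, which is not the build mm9 named for the files) and are written 5′ to 3′ on the strand of the gene. The Dscam stretch, chr16:97170753-97170985 on the minus strand, is the part of the 250 bases before the start that no annotated exon covers. The Cntn6 stretch, chr6:104492897-104492926 on the plus strand, is a 30-base piece that ends 118 bases before the start.
Dscam: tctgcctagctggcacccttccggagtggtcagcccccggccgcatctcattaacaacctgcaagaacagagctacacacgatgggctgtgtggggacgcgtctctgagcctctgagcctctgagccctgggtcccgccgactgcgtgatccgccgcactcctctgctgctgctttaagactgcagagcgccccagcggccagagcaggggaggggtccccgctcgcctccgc
Cntn6: ggaatggCAGCTGctccCAGCTGcctgagt
Capitals mark CAGCTG, an E-box form that is its own reverse complement, so that both strands were searched at once. The motif was picked after the Cntn6 sequence had been seen. Cntn6 held 2 copies in its 250 bases and Dscam 0, and 13% of the 32851 promoter windows of that length held at least 1 and 1.26% at least 2. The Dscam window was rich in CG pairs, with 21, against 3 for Cntn6 and a median of 6 over all windows. A match is a description of the letters only. Of the 10 members 9 had a window in the table, and 2 of their 15 windows held the motif, the other being a Cntn4 window.

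Dscaml1, the paralogue of Dscam with a like role in branch spacing, did not follow it. The male and female heterozygotes were at 35.4 and 43.3 CPM, and the male and female wild types at 40.8 and 48.1 CPM. The female of each genotype was higher than the male, and the genotypes overlapped. The log2 fold change was -0.17 ± 0.13 (SE; edgeR, adjusted p = 0.654). Counts of Dscaml1 per count of Dscam were 0.664 and 0.81 in the male and female heterozygotes, and 0.935 and 1.63 in the male and female wild types, so both wild types had the higher ratio. An exact permutation test over 2 against 2 libraries cannot give a two-sided p below 0.333. Exons of unlisted antisense transcripts cover 1.12% and 1.98% of the annotated Dscam exon length, and 6.4% of that of Cntn5. The strand setting of the counting was not given in the sources used here.

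Cntn6 encodes contactin 6 (NB-3), which is found on granule cells and at the contacts of their parallel fibres with Purkinje cells. Its level was 51.4 and 65.8 CPM in the male and female heterozygotes, against 71.3 and 83.1 CPM in the male and female wild types. Both heterozygotes lay below both wild types, and the male was lower than the female in each genotype. The means were 58.6 ± 10.2 and 77.2 ± 8.34 CPM (SD, n = 2 each), a 0.757-fold level that did not pass (edgeR, adjusted p = 0.209). Without the low-count filter Cntn6 passed (edgeR, adjusted p = 0.0324), in the fit that called 2.92% of genes. Without the male wild type its log2 fold change was -0.51. That fit sets a male and a female against a female, so sex and genotype cannot be told apart in it, and the ratio within females was -0.34 and within males -0.47 (log2). The log2 fold change was -0.29 with the female wild type left out. It was -0.23 with the male heterozygote left out and -0.60 with the female heterozygote left out.

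Cntn2 encodes contactin 2 (TAG-1), which granule cells carry on their growing axons and which the adult nervous system holds at the juxtaparanode. Heterozygotes had 361 CPM (male) and 394 CPM (female), and wild types 472 CPM (male) and 442 CPM (female). The genotypes did not overlap. With means of 378 ± 23.5 and 457 ± 21 CPM (SD, n = 2 each) the level was 0.827-fold, and the gene did not pass (edgeR, adjusted p = 0.350). Its log2 fold change was -0.23 with the male wild type left out and -0.32 with the female wild type left out. Granule cell markers, like Cntn6 and Cntn2, were lower in both heterozygotes. For all 12 listed markers the heterozygotes lay below the wild types with no overlap, as they did for 3410 of the 15117 tested genes. Their summed level was 4008 and 4470 CPM in the male and female heterozygotes, and 5235 and 6077 CPM in the male and female wild types. Of the wild types the female had the higher sum, as for Cntn6, whereas Cntn2 was higher in the male wild type. No listed marker was at 0. In bulk tissue fewer cells of a type and less RNA per cell cannot be told apart, and the part of the granule cell markers in the Cntn6 and Cntn2 values was not tested.

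Cntnap2, which encodes Caspr2, the channel-clustering partner of contactin 2, was set apart by a single library. The female wild type had 45.2 CPM, while the male wild type had 83.4 CPM and the male and female heterozygotes 79.2 and 80.4 CPM. The heterozygotes thus lay between the wild types. Its log2 fold change of 0.37 ± 0.24 (SE) did not pass (edgeR, adjusted p = 0.630). It became -0.07 once the female wild type was left out, and 0.82 once the male wild type was left out.

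Cntn5 encodes contactin 5 (NB-2), known from the auditory pathway. The male and female heterozygotes had 66 and 56 counts (3.25 and 3.51 CPM), and the male and female wild types 63 and 18 counts (3.83 and 0.873 CPM), with a counting error of 12.3% to 23.6%. As with Cntnap2, 3 libraries were alike and the female wild type was low. The log2 fold change was 0.75 ± 0.53 (SE; edgeR, adjusted p = 0.655). It was -0.18 with the female wild type left out and 1.95 with the male wild type left out. Cntn4, which encodes contactin 4 (BIG-2), an axon-targeting molecule of the olfactory system, showed the same order to a lesser degree, with 34.9 and 35.2 CPM in the male and female heterozygotes and 37.1 and 28.9 CPM in the male and female wild types. Its log2 fold change was 0.10 ± 0.14 (SE; edgeR, adjusted p = 0.849) and became -0.09 with the female wild type left out. The summed level of brainstem and midbrain neuron markers was likewise lowest in the female wild type. It was 426 and 407 CPM in the male and female heterozygotes, against 349 and 166 CPM in the male and female wild types. The male wild type, the highest library for Cntn5 and Cntn4, lay below both heterozygotes in this sum. Of the 13 listed, 11 were higher in the heterozygotes by the fit, and none was at 0 in all libraries. Their median log2 fold change was 0.81, and 0.36 with the female wild type left out. Hoxa5, a hindbrain and spinal cord patterning gene, went the other way, at 2.32 and 5.64 CPM in the male and female heterozygotes and 4.13 and 15.9 CPM in the male and female wild types. Its log2 fold change of -1.20 ± 0.26 (SE) did not pass (edgeR, adjusted p = 0.156), and it was -0.08 with the female wild type left out. The part of these markers in the Dscam, Cntnap2, Cntn5 and Cntn4 values was not tested.

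Cntn1, the paranodal contactin, was at 299 and 319 CPM in the male and female heterozygotes and at 343 and 285 CPM in the male and female wild types. The wild types lay on either side of the heterozygotes. The fitted difference was -0.01 ± 0.11 (log2, SE; edgeR, adjusted p = 0.977). Left-out libraries moved it to 0.12 (male wild type), -0.15 (female wild type) and 0.03 (male heterozygote). Nfasc was at 346 and 365 CPM in the male and female heterozygotes and at 400 and 348 CPM in the male and female wild types, and its fitted difference was -0.07 ± 0.11 (log2, SE; edgeR, adjusted p = 0.870), or 0.03 without the male wild type. Counts per gene do not separate the neuronal and the glial neurofascin isoforms. Cntn3, which encodes contactin 3 (BIG-1), was at 14 and 12.5 CPM in the male and female heterozygotes and at 16.5 and 12.2 CPM in the male and female wild types, with a log2 fold change of -0.10 ± 0.18 (SE; edgeR, adjusted p = 0.883) that was 0.12 without the male wild type. For all of these the genotypes overlapped.

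The ratios of partner genes within a library do not depend on library scaling. Cntn1 counts per Nfasc count, the paranodal pair, were 0.863 and 0.874 in the male and female heterozygotes and 0.857 and 0.819 in the male and female wild types, a narrow range in which only the female wild type stood lower. Cntn1 per Cntnap1, the gene of axonal Caspr, gave 0.849 and 0.891 in the male and female heterozygotes and 0.847 and 0.782 in the male and female wild types. The juxtaparanodal pair was less even: Cntn2 counts per Cntnap2 count were 4.56 and 4.90 in the male and female heterozygotes, and 5.66 and 9.78 in the male and female wild types. Both wild types had the higher ratio, and the female wild type stood far from the rest.

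The ratio of heterozygote to wild type within a sex had opposite signs in males and females for 6 of the 10 members. The share over all tested genes was 41.7%, in either direction, and it was not counted for 1 direction alone. All 6 members were negative in males and positive in females. They were Cntn1, Cntn3, Cntn4, Cntn5, Cntnap2 and Nfasc. Dscam was higher in the heterozygote of each sex (log2 ratios of 0.29 in males and 0.86 in females), and Cntn2, Cntn6 and Dscaml1 were lower in each. The difference between the sexes was widest for Cntn5 (-0.23 in males and 1.88 in females) and Cntnap2 (-0.07 and 0.83). Fitted as a product of genotype and sex, 0 of 10 members passed for a genotype effect differing between the sexes (edgeR, DESeq2 and limma-voom). None had an unadjusted p under 0.05, against 3.55% of tested genes in edgeR. The fit had no sex term, so any sex difference counted as residual spread, and it could miss such an effect. Over all tested genes, edgeR and DESeq2 each called 0.0198% and limma-voom 0.0397%. For Cntnap2 the male minus female difference was -0.90 ± 0.42 (log2, SE; edgeR, adjusted p = 0.998).

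**Figure D3:**
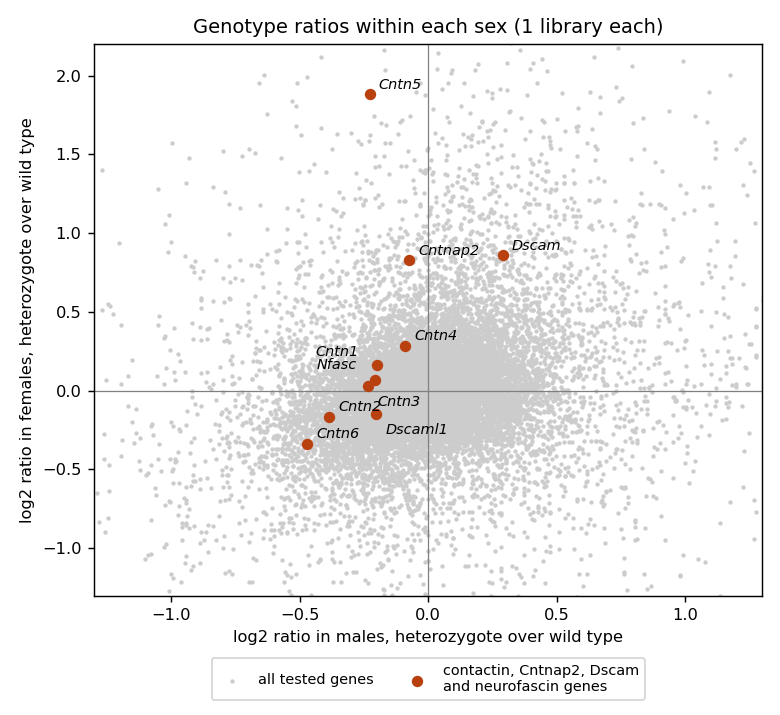
Log2 ratio of heterozygote over wild type in females (y axis) against males (x axis), with 1 library for each genotype and sex, for the members (labelled) and all tested genes in grey, of which 311 lie outside the axes. Cntn1, Cntn3, Cntn4, Cntn5, Cntnap2 and Nfasc lie in the upper left quadrant, Dscam in the upper right, and Cntn2, Cntn6 and Dscaml1 in the lower left.

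The male wild type held the highest value of 7 of the 10 members, and the female wild type the lowest of 6, where these libraries were highest for 25.4% and lowest for 32.0% of all tested genes. This count was made after the values had been seen. The summed level of the members was 1278 and 1373 CPM in the male and female heterozygotes, and 1511 and 1323 CPM in the male and female wild types. Between the sexes, 0 of 10 members passed (edgeR, DESeq2 and limma-voom), against 0.0595%, 0.0397% and 0.0529% of the genes that these tools tested. Cntn6 was the 1 member with an unadjusted p under 0.05, against 3.82% of tested genes, with a male minus female difference of -0.29 ± 0.11 (log2, SE; edgeR, adjusted p = 0.994).

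Genes of the domains in which these proteins act did not pass the genotype test either, except where the low-count filter was dropped or a wild type was left out. Without the filter edgeR called Kcnab2 (adjusted p = 0.039), Cntnap5a (0.0109), Ncam2 (0.00644) and Alcam (0.00202) higher and Chl1 (0.0425) lower, in the fit that called 2.92% of genes. Of 14 listed genes of the node and the axon initial segment, 0 passed by edgeR, with 6 higher and 8 lower and 2 at an unadjusted p under 0.05. Those were Scn4b, a beta subunit of sodium channels (means of 269 ± 31.7 and 221 ± 30.8 CPM in heterozygotes and wild types, SD, n = 2 each; log2 fold change 0.29 ± 0.10, SE), and Vcan, a matrix proteoglycan (-0.43 ± 0.15, SE). Kcnq3, a nodal potassium channel subunit, had 0.46 ± 0.23 (SE), or 0.07 without the female wild type, and the sodium channel gene Scn2a1 -0.28 ± 0.14 (SE). Of 10 genes of the paranode and juxtaparanode, 0 passed, with 4 higher and 6 lower. The smallest p belonged to Kcnab2, a cytoplasmic subunit of the potassium channels that Caspr2 gathers, at 395 ± 4.56 CPM in heterozygotes and 308 ± 22.5 in wild types (mean ± SD, n = 2 each), and a fold change on the log2 scale of 0.36 ± 0.10 (SE; edgeR, adjusted p = 0.219). Adam22, which binds Lgi proteins in that domain, had -0.24 ± 0.11 (SE), the axonal scaffold Ank2 -0.18 ± 0.10 (SE) and the spectrin Sptan1 -0.12 ± 0.10 (SE).

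Among 14 binding partners of contactins, 0 passed by edgeR, with 6 higher and 8 lower and 3 at an unadjusted p under 0.05. Tnr, the matrix protein tenascin R, was at 28.8 ± 0.949 CPM in heterozygotes and 21.1 ± 5.42 in wild types (mean ± SD, n = 2 each), with 0.47 ± 0.16 (log2, SE), or 0.20 without the female wild type. The amyloid precursor family gene Aplp1 had 0.26 ± 0.10 (SE) and its relative App 0.15 ± 0.10 (SE). Chl1, a member of the L1 family that can associate with contactin 6, was lower in both heterozygotes, at 122 and 138 CPM in the male and female, than in the wild types, at 185 and 151 CPM, with a log2 fold change of -0.36 ± 0.12 (SE; edgeR, adjusted p = 0.306). Of the 22 other neural immunoglobulin adhesion genes, 0 passed and 11 lay on either side of 0. Ncam2 had 0.64 ± 0.17 (SE; edgeR, adjusted p = 0.207), Alcam 0.55 ± 0.19 (SE) and Mdga1 0.42 ± 0.14 (SE). Without the female wild type these were 0.30, 0.20 and 0.32.

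The 6 other genes of the Caspr family had a median log2 fold change of 0.39, a value that turned to -0.13 without the female wild type and was 0.86 without the male wild type, 0.15 without the female heterozygote and 0.40 without the male heterozygote. By edgeR 0 passed, also at an unadjusted p under 0.05. Cntnap5a was at 9.07 and 10.5 CPM in the male and female heterozygotes and at 8.51 and 2.47 CPM in the male and female wild types. It shared with Cntnap2 and Cntn5 the low value in that library. Its log2 fold change was 1.02 ± 0.52 (SE; edgeR, adjusted p = 0.550), and Cntnap5c had 0.65 ± 0.36 (SE). With the female wild type left out they were 0.20 and 0.11. Cntnap4, the Caspr family gene of interneurons, had -0.22 ± 0.11 (SE) and Cntnap1 -0.11 ± 0.10 (SE). Among netrins and their receptors, 11 genes linked to Dscam of which 10 were tested, 0 passed, with 5 higher and 5 lower. The receptor gene Unc5c, known from granule cell migration, was lower in both heterozygotes (47.9 ± 4.71 against 62.1 ± 2.08 CPM, mean ± SD, n = 2 each; log2 fold change -0.38 ± 0.12, SE). Unc5d had 0.51 ± 0.22 (SE), Ntn3 0.44 ± 0.25 (SE) and Ntn1, the netrin that Dscam binds, -0.28 ± 0.13 (SE). Without the female wild type Unc5d was -0.0063, Ntn3 0.41 and Ntn1 -0.0051. Without the male wild type, where 17.5% of all tested genes were called, edgeR called 5 of the node and initial segment genes, 4 of the paranode and juxtaparanode genes, 3 binding partners, 2 Caspr family genes, 4 netrin genes and 8 of the other adhesion genes. Without the female wild type it called 1, 2, 1, 0, 1 and 4 of them in the same order.

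**Figure D4:**
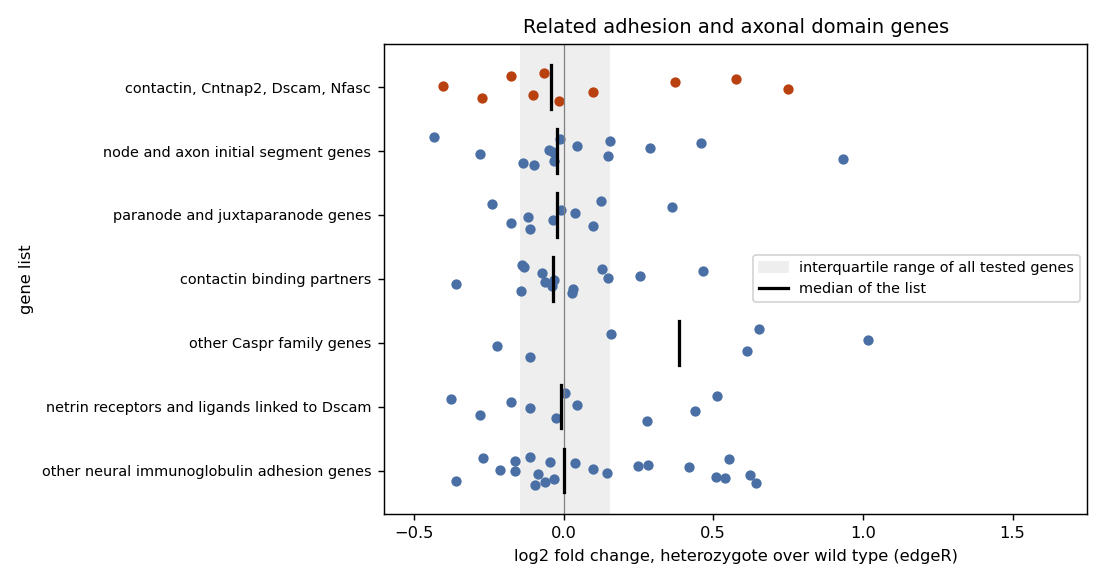
Log2 fold change of heterozygotes over wild types (x axis) for each gene of the members (orange) and of the 6 related lists (blue, lists on the y axis), with the median of each list as a black line and the interquartile range of all tested genes in grey. The medians of the members and of 5 lists lie close to 0, from -0.04 to 0.00303, and that of the other Caspr family genes lies at 0.39, or at -0.13 without the female wild type.

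Markers of cell types that the dissected tissue could hold differed in how they ordered the libraries. Purkinje cell markers were lower in both heterozygotes (summed level 4829 and 4614 CPM in the male and female) than in the wild types (5510 and 6110 CPM), with 11 of 12 lower by the fit. Rora, a nuclear receptor of Purkinje cells, had -0.43 ± 0.10 (SE) and the calcium pump gene Atp2a3 -0.43 ± 0.11 (SE). The granule cell markers Fat2 and Gabrd had -0.58 ± 0.10 and -0.56 ± 0.11 (SE). Without the female wild type Rora, Atp2a3, Fat2 and Gabrd had -0.34, -0.27, -0.40 and -0.34. The median of the Purkinje cell list then went from -0.32 to -0.22, and that of the granule cell list from -0.44 to -0.34. Oligodendrocyte markers, from the cells that make glial neurofascin, summed to 14616 and 13740 CPM in the male and female heterozygotes and to 12663 and 13331 CPM in the wild types, with 10 of 12 higher. Opalin had 0.29 ± 0.13 (SE) and Aspa -0.25 ± 0.13 (SE). Precursor markers summed to 252 and 243 CPM in the heterozygotes and 230 and 213 CPM in the wild types, and in that list Sox10 had 0.20 ± 0.11 (SE) and Gpr17 0.26 ± 0.15 (SE). Astrocyte and Bergmann glia markers summed to 3245 and 3134 CPM in the heterozygotes and 3214 and 3790 CPM in the wild types, with Gfap at 0.23 ± 0.11 (SE) and Gdf10 at -0.40 ± 0.17 (SE), or -0.03 without the female wild type. Sums of GABAergic interneuron markers lay between 1231 and 1309 CPM, with 5 higher and 5 lower by the fit (median log2 fold change -0.04). Unipolar brush cell markers summed to 548 and 535 CPM in the heterozygotes and to 593 and 683 CPM in the wild types. Of these, 2 were higher and 3 lower (median -0.22). Among the interneuron markers Lgi2 had 0.91 ± 0.19 (SE). Among the unipolar brush cell markers Grp, at only 0.485 to 2.81 CPM, had 1.47 ± 0.47 (SE). Without the female wild type Lgi2 and Grp had 0.36 and 0.71. Choroid plexus markers reached 2682 CPM in the male heterozygote and 1459 to 1548 CPM elsewhere, with Folr1 at 1.24 ± 0.28 and Enpp2 at 0.46 ± 0.12 (log2 fold change, SE). Without the male heterozygote Folr1 had 0.90 and Enpp2 0.18, and the median of the list went from 0.48 to 0.11. Of all marker genes, edgeR with the filter, TMM scaling and the sex term called Slc6a5, the neuronal glycine transporter, and Th, the enzyme that starts catecholamine synthesis, and no other (edgeR, adjusted p = 0.0473 for each). Neither passed with the stricter filter (adjusted p = 0.0919 for each) or without the sex term (0.361 for Slc6a5 and 0.307 for Th), and DESeq2 called Th (adjusted p = 0.000734) and gave no adjusted p for Slc6a5. DESeq2 also called 5 granule cell markers lower, which were Gabra6, Fat2, Cbln3, Gabrd and Chn2. It called 0.547% of the 6031 genes to which it gave an adjusted p. With library totals as the scaling, edgeR also called Fat2 lower (edgeR, adjusted p = 0.049). Without the low-count filter edgeR called 9 of the 12 granule cell markers lower, in the fit that called 2.92% of genes. That fit also called 2 Purkinje cell markers and 1 astrocyte marker lower. It called 2 interneuron, 1 unipolar brush cell and 4 choroid plexus markers higher, and 2 brainstem and midbrain markers higher and 1 lower. Slc6a5 and Th had log2 fold changes of 1.02 and 1.04 without the male heterozygote, and of 1.66 and 1.20 without the female heterozygote. Both passed when the male wild type (1.98 and 1.49) or the female wild type (0.96 and 0.83) was left out. The part of these markers in the members' values was not tested.

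**Figure D5:**
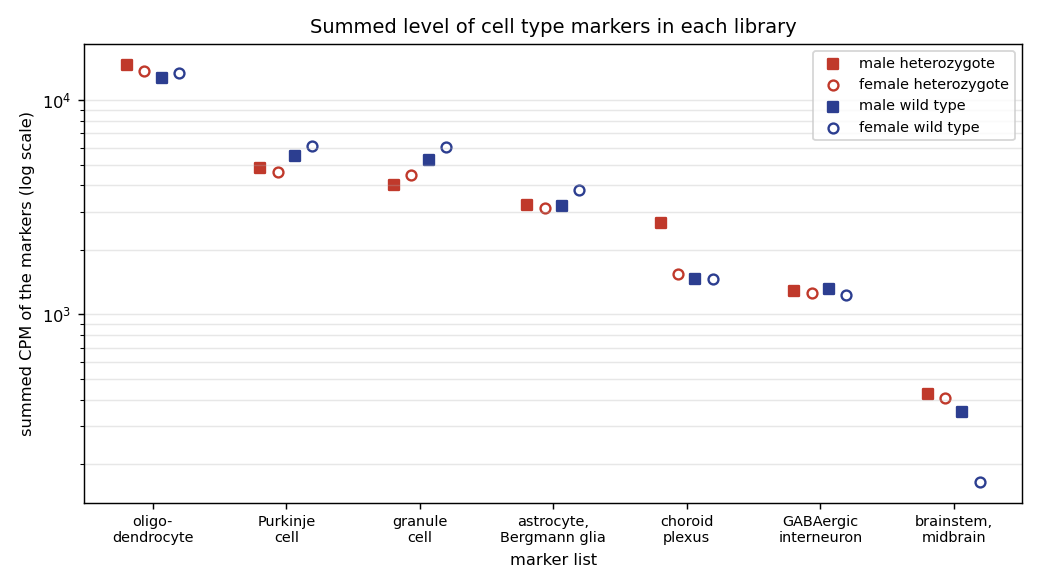
Summed CPM of each marker list (log axis) in the 4 libraries, with red for heterozygotes, blue for wild types, squares for males and circles for females. Granule and Purkinje cell sums of the heterozygotes lie below those of the wild types, and the brainstem and midbrain markers are lowest in the female wild type, at 166 CPM.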

How the data were processed

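Cerebellum RNA of 2 heterozygotes and 2 wild types was made into stranded mRNA libraries and sequenced in 1 lane, per the labels' protocols. Raw counts for each gene symbol were deposited, and the submitters' processing notes name STAR, featureCounts, FastQC, edgeR and the build mm9, with no versions. Genotype was tested with edgeR 4.0.16 in R 4.3.3: filterByExpr by genotype (15117 genes), TMM, a robust quasi-likelihood fit on genotype and sex (1 residual degree of freedom), and two-sided p-values with Benjamini-Hochberg adjustment across all 15117 genes at 0.05. The SE is the log2 fold change over the square root of F. Ratios within a sex used a prior count of 2. The product of genotype and sex was fitted without a sex term. The members and lists were chosen with earlier results of these data known. Named genes were the 10 members, Arid1b and, with a mean of at least 1 CPM, up to 4 genes of smallest p per related list and 2 per marker list, of which 1 is not reported here. Gabra6, Calb1 and the gene ratios were added after seeing values. Lengths and exon overlaps came from GENCODE vM21, and promoters from RefSeq. Alternatives were DESeq2 1.42.0, limma-voom (limma 3.58.1), other scalings, filters and thresholds, no sex term, and each library left out with genotype as the only term.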

Additional observations from a re-analysis of the deposited data

How the results depend on the processing

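The count of members called for genotype was 0 under every alternative except 2 without the low-count filter (Dscam and Cntn6), and leaving out single libraries gave 0 to 5. The count over all genes, 3, became 33 with DESeq2, 7 with DESeq2's size factors, 13 with library totals, 553 without the filter, 0 with the stricter filter, 0 without the sex term and 7 at an adjusted p of 0.1, and 0 to 2730 when single libraries were left out. The cause was not tested. The sex and the genotype by sex counts stayed at 0 of 10 under each alternative run. Leaving out single libraries moved the median of the members between -0.16 and 0.12. Fits with a library left out also lacked the sex term, and they were the only alternative that turned a direction of a member: Cntn1 ran from -0.15 to 0.12, Cntn3 from -0.31 to 0.12, Cntn4 from -0.085 to 0.28, Cntn5 from -0.18 to 1.95, Cntnap2 from -0.065 to 0.82 and Nfasc from -0.17 to 0.034. No paired analysis was possible because the labels carry no replicate numbers, and sex, which is balanced, was a term instead wherever all 4 libraries were fitted, except in the alternative without it. Depth limits Cntn5 most, at 18 to 66 counts per library.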

Other observations

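Several members lie next to each other in the genome, which the comparisons above do not use. In the RefSeq order of protein-coding genes, Cntn3, Chl1, Cntn6 and Cntn4 follow each other on chromosome 6, and Cntn2 and Nfasc are neighbours on chromosome 1. Along the chromosome 6 run the log2 fold changes of heterozygotes over wild types were -0.10 ± 0.18 for Cntn3, -0.36 ± 0.12 for Chl1, -0.40 ± 0.11 for Cntn6 and 0.10 ± 0.14 for Cntn4 (SE), and 0 of them passed (edgeR, adjusted p from 0.209 to 0.883). For the middle genes, Chl1 and Cntn6, the heterozygotes lay below the wild types with no overlap, and the outer genes overlapped between genotypes. On chromosome 1, Cntn2 was at -0.27 ± 0.11 and Nfasc at -0.07 ± 0.11 (SE). The genes on either side of Dscam on chromosome 16 were Pcp4, a calmodulin-binding protein of Purkinje cells, at -0.08 ± 0.14, and Bace2, a protease, at -0.24 ± 0.27 (SE), both on the other side of 0 from Dscam. No difference between neighbours was tested.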
